A study of Homo sapiens with 2 samples.

Results

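The genes described here encode protein disulphide isomerases, the collagen prolyl 4-hydroxylase subunits and the oxidases that recharge protein disulphide isomerase. They were chosen by name: every probe was taken whose annotated symbol, updated to the current one, was P4HB, PDIA3, PDIA4, PDIA5, PDIA6, P4HA1, P4HA2, P4HA3, ERO1A or ERO1B. Of these 10 genes, 5 had a named probe, with 6 probes in all, among 12445 genes named on the array. P4HB had 2 probes, and P4HA1, P4HA2, P4HA3 and ERO1A (annotated under its older symbol ERO1L) had 1 each. PDIA3, PDIA4, PDIA5, PDIA6 and ERO1B were not analysed here. All 5 named genes passed the filter on low levels, so none was lost to it.

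The study transfected KYSE-170, a human oesophageal squamous carcinoma cell line, with an oligoribonucleotide for miR-210 or with one labelled ncRNA, and measured each culture on 1 array. The cells of both arms were grown in the same serum-containing medium and received the same transfection reagent. The labels give neither the ncRNA sequence nor the dose, the time after transfection or the arm of the miR-210 oligoribonucleotide. Only 1 cell line was used, so the values describe that line alone.

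Proteins of the secretory pathway acquire their disulphide bonds in the endoplasmic reticulum. P4HB, the founding protein disulphide isomerase, forms and reshuffles these bonds, and ERO1A oxidises it again for the next round while passing electrons to oxygen. P4HB has a second role as the beta subunit of collagen prolyl 4-hydroxylase, which hydroxylates prolines of collagen so that the triple helix is stable. The catalytic alpha subunit of that enzyme comes from P4HA1, P4HA2 or P4HA3. P4HA1, P4HA2 and ERO1A are known as genes induced by hypoxia, as is miR-210 itself, and P4HB has been reported in other work as a target of miR-210.

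The 2 mature products of the miR-210 gene are shown because the seed, the stretch that pairs with target transcripts, is the part through which a transfected miRNA is known to select them. Sequences are from RefSeq (GRCh38.p14), the gene lies on the minus strand, and capitals mark the seed, bases 2 to 8.

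hsa-miR-210-3p (chr11:568112-568133): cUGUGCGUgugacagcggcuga

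hsa-miR-210-5p (chr11:568150-568171): aGCCCCUGcccaccgcacacug

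The 2 seeds differ, so the products would pair with different sites. A site for the 3p seed reads ACGCACA in the target RNA and a site for the 5p seed reads CAGGGGC. Transcript sequences were not used here, so no site was looked for in the members.

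As facts of the whole series, the median intensity was 36 on the miR-210 array and 39 on the ncRNA array. The filter kept 6684 genes, whose log2 ratios had a median of 0.01 and a SD of 0.54. Squamous markers were present, with 8 of 9 named genes kept, 6 above 0 and 2 below. Their summed normalized intensity was 12875 on the miR-210 array and 15091 on the ncRNA array, and without SFN, the brightest, 5034.5 and 3442 on the miR-210 and ncRNA arrays. TP63, the marker not kept, gave 22 on the miR-210 array and 57 on the ncRNA array. Of the markers of other cell types, 2 of 7 for fibroblasts, 3 of 5 for endothelium, 1 of 4 for leukocytes and 0 of 3 for hepatocytes were kept. Their highest intensity was 181 on the miR-210 array and 183 on the ncRNA array, and the part of other cell types in the members' values was not tested. Fewer transcripts per cell and fewer cells expressing a gene cannot be told apart in such bulk RNA.

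Between the transfections, the beta subunit and the alpha subunits of collagen prolyl 4-hydroxylase lay on opposite sides of 0. P4HB was 1.38-fold lower on the miR-210 array by its brighter probe, while P4HA2 was 1.72-fold higher and P4HA1 1.34-fold higher. P4HA3 and ERO1A stood closer to 0. Every value is a single measurement. A probe's log2 ratio had a SD of 0.44 around its gene over 251 genes with 2 or more kept probes. That spread is the only error these arrays offer, and it leaves out differences between cultures.

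**Figure D1:**
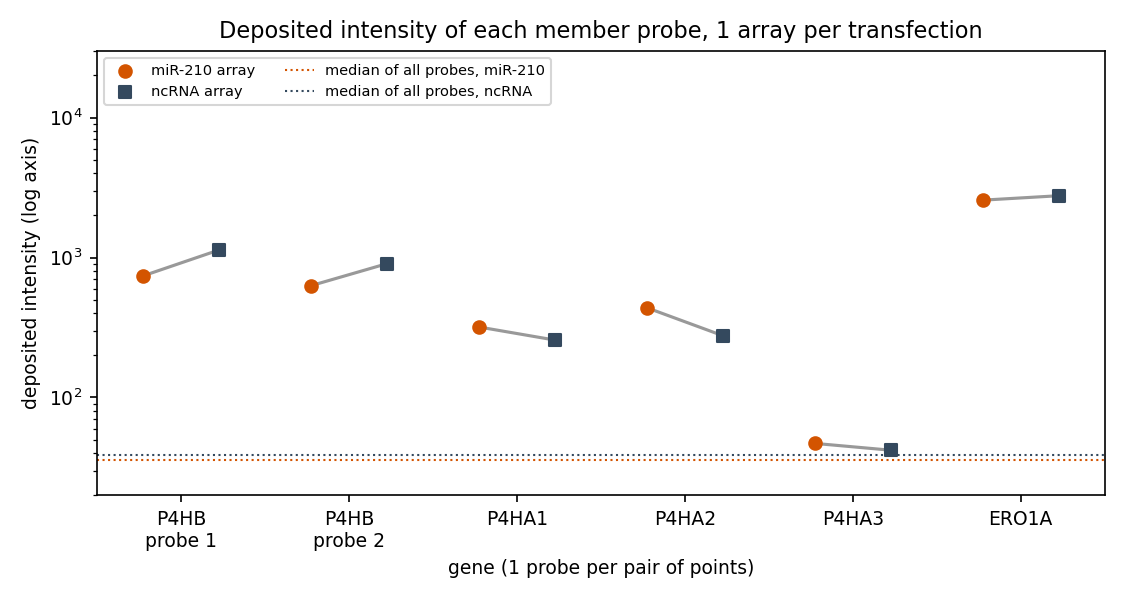
Deposited intensity (vertical log axis, arbitrary scanner units) of the 6 member probes on the miR-210 array (circles, left of each pair) and the ncRNA array (squares, right), with the median of all probes of each array as dotted lines. Both P4HB probes were dimmer on the miR-210 array (739 against 1134, and 629 against 905), P4HA2 was brighter there (438 against 276), and P4HA3 lay just above both medians.

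P4HB was read by 2 probes. The brighter gave an intensity of 739 on the miR-210 array and 1134 on the ncRNA array. The other gave 629 on the miR-210 array and 905 on the ncRNA array. Both probes were dimmer with miR-210, at intensities well inside the measured range, brighter than at least 90.3% of all probes on each array. After quantile normalization their log2 ratios were -0.47 and -0.40, with a mean of -0.43, so that the gene was 1.38-fold and 1.32-fold lower. On the deposited scale, without normalization, the folds were 1.53 and 1.44.

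The 2 probes of P4HB differed by 0.07 on the log2 scale, against a median gap of 0.38 between the 2 brightest probes of a gene. A gap as small was found in 22 of 251 genes, or 8.76%. The 251 genes were not matched to P4HB for level. With the filter at the 75th percentile of level, the spread between probes was 0.38, against 0.44 with the main filter. Both probes lay at or below -0.40 in 12 of the 251 genes, P4HB among them, or 4.78%. The sign was shared by the 2 probes in 145 of the 251 genes, or 57.8%, and their ratios correlated across genes with a Spearman rho of 0.29, where genes are not independent replicates. Probes of a gene share the array and the RNA, so their likeness does not cover the difference between cultures.

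**Figure D2:**
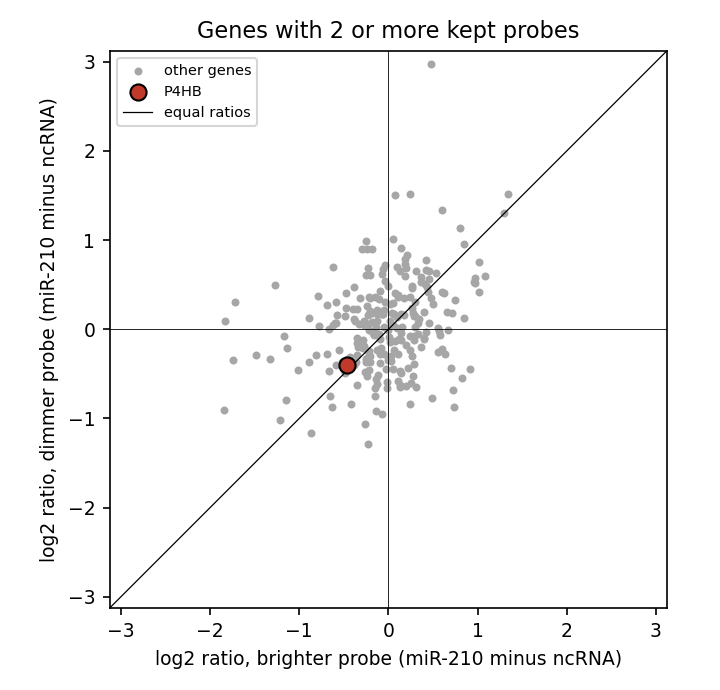
Log2 ratio of miR-210 over ncRNA for the brighter probe (horizontal) and the dimmer probe (vertical) of each of 251 genes with 2 or more kept probes. P4HB, the large point at -0.47 and -0.40, lies close to the line of equal ratios, while most other genes scatter widely around it.

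A ratio of this size was not rare. P4HB ranked 1035 from the lowest of 6684 kept genes, and 15.5% of them had a log2 ratio as low or lower. Among 574 genes whose mean level lay within 0.5 of that of P4HB on the log2 scale, 79 were as low or lower, or 13.8%, and their ratios had a SD of 0.50. The log2 ratio of P4HB was 1.06 times the spread between probes.

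P4HA1, the alpha subunit most widely expressed in tissues, gave an intensity of 319 on the miR-210 array and 257 on the ncRNA array. Its log2 ratio was 0.42, which is 0.96 times the spread between probes. Of all kept genes, 19% were as high or higher, and among 1177 genes of like level 230 were, or 19.5%. The difference between the arrays therefore lay within the spread of single probes.

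P4HA2, the alpha subunit of the second isoenzyme, gave 438 on the miR-210 array and 276 on the ncRNA array. Its log2 ratio of 0.79, or 1.72-fold higher, was 1.8 times the spread between probes and the largest among the members. It ranked 412 from the highest of 6684 genes, so that 6.16% were as high or higher. Among 1099 genes of like level, 69 were, or 6.28%. P4HA2 had a single probe, so no second probe checks its ratio.

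P4HA3, the alpha subunit described last, gave 47 on the miR-210 array and 42 on the ncRNA array. The array medians were 36 and 39, and this probe stood just above them. Its log2 ratio was 0.26, or 0.59 times the spread between probes. At 29.2%, a large share of all kept genes were as high or higher.

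ERO1A, the oxidase, was the brightest member probe, with 2569 on the miR-210 array and 2764 on the ncRNA array. Its log2 ratio was 0.09 after quantile normalization, or 0.2 times the spread between probes. The sign depended on the scaling, at -0.11 on the deposited scale and -0.03 when each array was divided by its median. Genes of like level numbered 229 and had a SD of 0.37, the narrowest of the 5 level windows. No difference in ERO1A between the transfections was detectable on these arrays.

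**Figure D3:**
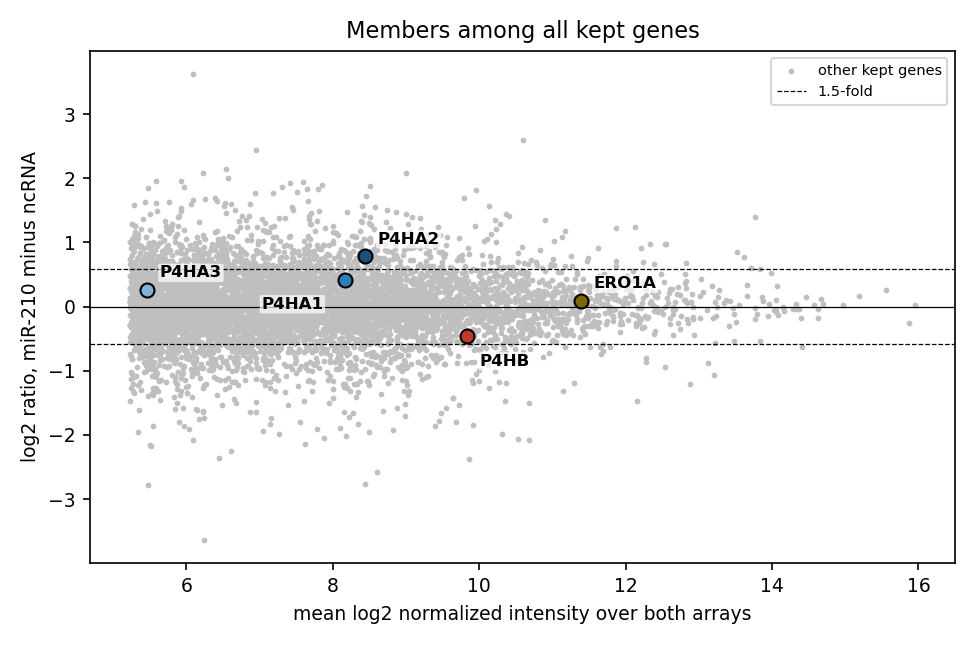
Log2 ratio of miR-210 over ncRNA (vertical) against mean log2 normalized intensity over both arrays (horizontal) for the 6684 kept genes, with the 5 members as large points and dashed lines at 1.5-fold. P4HA2 at 0.79 is the only member past a dashed line, and P4HB at -0.47 is the only member below 0.

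Counted over the members, 4 of 5 genes had a log2 ratio above 0 and 1 lay below it (3 and 2 on the deposited scale or with median scaling, where ERO1A turned sign), while 50.2% of all kept genes lay above 0 and 48.6% below. At least 1.5-fold higher was 1 of 5 members, P4HA2, against 12.0% of kept genes, and at least 1.5-fold lower was 0 of 5, against 10.9%. No member reached 2-fold, while 3.05% of kept genes were 2-fold higher with miR-210 and 3.22% were 2-fold lower. On the deposited scale the median gene stood at -0.12. Genes at least 1.5-fold higher then made up 34.3% of those 1.5-fold apart, in place of 52.3%. P4HB was 1.53-fold lower there, 1 of 1050 kept genes at least 1.5-fold lower, against 730 such genes under quantile normalization. The median log2 ratio of the members was 0.26, beside 0.01 for all kept genes. With 5 genes, these counts are near the background and are no result about the members as a group.

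A factor common to all probes of an array cancels in the distance between subunits. P4HA2 lay 1.25 above P4HB on the log2 scale, and the distance ranged from 1.22 to 1.28 over the 8 settings run, the main one included. Changing the level filter could not alter it, and median scaling must give the same distance as no normalization. Those settings are therefore no separate check of it. A difference between 2 genes has a SD of 0.62 from the spread between probes, so this distance was 2.02 times that spread. Of all pairs of kept genes, 9.50% lay at least as far apart. P4HA2 and P4HB were the highest and lowest of the members. A share over single pairs therefore makes their distance look rarer than a range over several genes is. P4HA1 lay 0.89 above P4HB, 1.43 times that spread, and 21.6% of pairs were as far apart. P4HA3 lay 0.73 above P4HB and ERO1A 0.55 above it, with 30.3% and 42.6% of pairs as far apart.

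Among the alpha subunits the distances were smaller. P4HA2 stood 0.36 above P4HA1 and 0.52 above P4HA3, and P4HA1 stood 0.16 above P4HA3, all under 0.62. By log2 ratio the order was therefore P4HA2, P4HA1, P4HA3, ERO1A and P4HB from high to low. No 2 neighbours in it differed by more than 0.62, the SD of a difference between 2 genes. Only the distances of P4HA2, P4HA1 and P4HA3 from P4HB and of P4HA2 from ERO1A, at 0.70, exceeded it. Intensities of different probes are not read as relative amounts of their transcripts, because probes differ in their response.

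**Figure D4:**
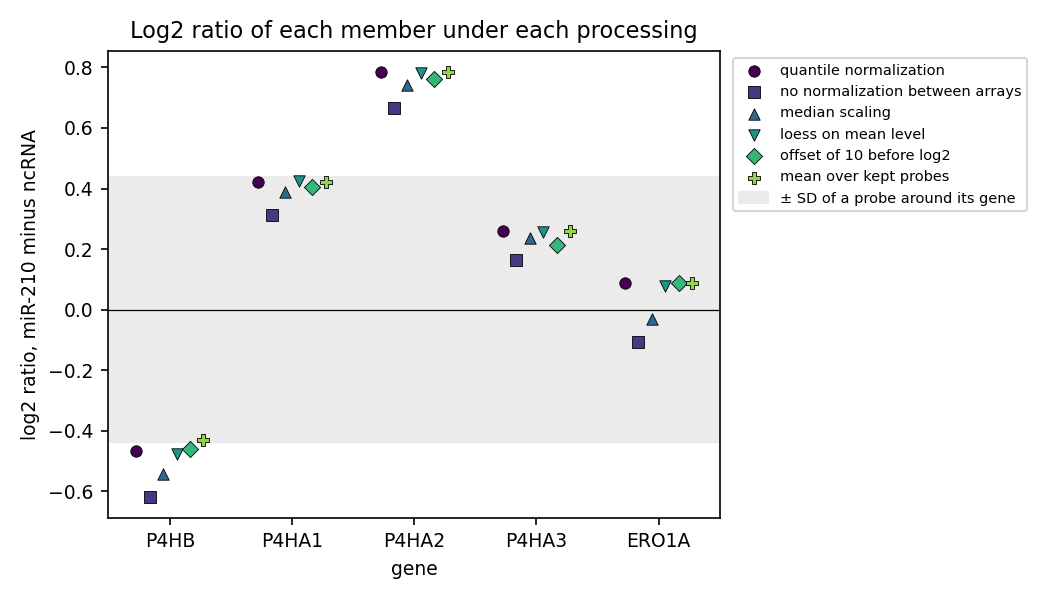
Log2 ratio of miR-210 over ncRNA (vertical) for each member (horizontal) under quantile normalization and 5 other treatments of the values, with a grey band from -0.44 to 0.44 for the spread between probes. P4HB runs from -0.62 to -0.43 and P4HA2 from 0.67 to 0.79, while ERO1A runs from -0.11 to 0.09, across 0.

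The start regions of P4HB and P4HA1 are shown because these subunits of 1 enzyme stood on opposite sides of 0. Each is the 250 bases before the outer annotated start of the gene, from RefSeq (GRCh38.p14), on the minus strand of its chromosome and printed in the direction of transcription. Capitals mark the letters ACGTG and GCGTG, 2 forms of the core that hypoxia-inducible factors are known to bind, and CCAAT, each on either strand. No motif overlaps another in these 2 windows.

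P4HB (chr17:81860536-81860785): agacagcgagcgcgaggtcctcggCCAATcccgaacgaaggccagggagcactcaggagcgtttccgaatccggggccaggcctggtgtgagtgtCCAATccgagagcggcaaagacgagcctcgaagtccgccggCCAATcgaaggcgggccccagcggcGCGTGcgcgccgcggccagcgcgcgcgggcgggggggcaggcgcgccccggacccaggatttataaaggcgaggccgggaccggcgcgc

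P4HA1 (chr10:73096867-73097116): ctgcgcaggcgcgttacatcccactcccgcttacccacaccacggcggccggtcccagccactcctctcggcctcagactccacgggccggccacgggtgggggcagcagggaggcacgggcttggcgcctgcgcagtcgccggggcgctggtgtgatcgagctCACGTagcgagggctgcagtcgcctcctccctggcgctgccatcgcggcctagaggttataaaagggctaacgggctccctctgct

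The P4HB window held 3 copies of CCAAT and 1 of GCGTG, and the P4HA1 window held 1 copy of ACGTG, written CACGT on the printed strand, 86 to 82 bases before the start. The ERO1A window, not printed, held 1 copy of each hypoxia core and no CCAAT. That of P4HA2, also not printed, lies before a transcript start inside the gene's outer bounds. It held 2 copies of CCAAT and neither hypoxia core. CCAAT and a hypoxia core were thus each found for subunits on both sides of 0, and their part in the ratios was not tested. These motifs are short and common: of 35116 windows of the same length, 43.2% held ACGTG or GCGTG on either strand and 32.0% held CCAAT. A match is a description of these letters and not a binding site.

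The members were next set beside other genes of the same biology, in lists taken by function. Other proteins of the protein disulphide isomerase family had 8 kept genes of 9 named on the array, 3 above 0 and 5 below, with a median log2 ratio of -0.26, which turned to 0.036 with the filter at the 75th percentile of level. At least 1.5-fold lower were 2 of 8, against 10.9% of all kept genes, and none was 1.5-fold higher, against 12.0%. With 8 genes, these counts are no result about the list. TMX3, a membrane-bound thioredoxin-like isomerase, was 2.21-fold lower, with 85 on the miR-210 array and 203 on the ncRNA array. TXNDC16, a luminal thioredoxin-domain protein, was 1.87-fold lower, with 57 and 115 on the miR-210 and ncRNA arrays. DNAJC10, a reductase that works with the chaperone HSPA5, had a log2 ratio of 0.57 (506 on the miR-210 array, 368 on the ncRNA array). TXNDC5 stood at 0.37 by its brighter probe and at -0.20 by the other, so its probes disagreed in sign.

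Other thiol enzymes of the endoplasmic reticulum had 3 kept genes of 5 named. VKORC1L1, a vitamin K epoxide reductase family member that can also pass oxidising equivalents to protein disulphide isomerase, was 4.24-fold higher (998 on the miR-210 array, 257 on the ncRNA array). VKORC1, its close relative in the vitamin K cycle, was 1.5-fold lower (315 on the miR-210 array, 512 on the ncRNA array). PRDX4, the peroxiredoxin that uses the peroxide made by ERO1 enzymes, had a log2 ratio of -0.16 (681 and 836 on the miR-210 and ncRNA arrays). The median of the 3 was -0.16 and the mean, to which VKORC1L1 adds most, was 0.45; the median turned to 0.15 with no filter on level.

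Chaperones, co-chaperones and prolyl isomerases of the endoplasmic reticulum had 19 kept genes of 20, 10 above 0 and 9 below, with a median of 0.13 and a mean of -0.05. At least 2-fold lower were 2 of the 19, against 3.22% of all kept genes, and at least 2-fold higher was 1, against 3.05%. With 19 genes, these counts are no result about the list. SDF2, a component of a luminal chaperone complex, was 3.27-fold lower (267 on the miR-210 array, 964 on the ncRNA array). Its relative SDF2L1 was 1.68-fold lower (480 on the miR-210 array, 880 on the ncRNA array). FKBP9, a prolyl isomerase, was 2.22-fold lower (133 on the miR-210 array, 319 on the ncRNA array), and its dimmer probe was 1.73-fold lower. DNAJB9, a co-chaperone of HSPA5, was 2.26-fold higher (480 on the miR-210 array, 229 on the ncRNA array).

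Enzymes and chaperones of collagen biosynthesis other than the prolyl 4-hydroxylases had 6 kept genes of 10, 4 above 0 and 2 below, with a median of 0.13. PLOD3, a lysyl hydroxylase that also glycosylates collagen, was 1.99-fold higher (67 on the miR-210 array, 36 on the ncRNA array), from a level near the array medians. PLOD2, the lysyl hydroxylase of collagen telopeptides, stood at 0.56 (264 on the miR-210 array, 195 on the ncRNA array). P3H2, a prolyl 3-hydroxylase, and COLGALT1, a collagen galactosyltransferase, both stood at -0.51. Intensities of P3H2 were 623 on the miR-210 array and 976 on the ncRNA array.

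Collagen chains, the substrates of the prolyl 4-hydroxylases, were read mostly by dim probes in this epithelial line. Of the 29 named genes on the list, which does not hold every collagen gene, 11 passed the filter, 6 above 0 and 5 below. Their median of 0.19 turned to -0.14 with the filter at the 75th percentile and to -0.042 with none. The kept chains farthest from 0 were COL4A5, a basement membrane chain, at 0.88 (84 on the miR-210 array, 49 on the ncRNA array), COL5A1 at 0.79, COL4A6 at 0.58 and COL6A3 at 0.42. COL4A6 had a dimmer probe below the filter at -1.08, of opposite sign. At least 1.5-fold higher were 3 of the 11, against 12.0% of all kept genes, and none was 1.5-fold lower, against 10.9%. None of the 11 was 2-fold apart in either direction, against 3.05% of all kept genes 2-fold higher and 3.22% lower. With 11 genes, these counts are no result about the list. COL4A1, a basement membrane chain named after its values were seen, gave 683 on the miR-210 array and 887 on the ncRNA array.

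Other hydroxylases that use 2-oxoglutarate and oxygen had 4 kept genes of 4. EGLN2, a prolyl hydroxylase of hypoxia-inducible factors, was 2.24-fold higher (77 on the miR-210 array, 37 on the ncRNA array). EGLN3, another, was 2-fold lower (30 on the miR-210 array, 64 on the ncRNA array). HIF1AN, the asparaginyl hydroxylase of the same factors, stood at -0.55 and EGLN1 at 0.41, so the list was split 2 and 2 around 0, with a median of -0.07 and a mean of 0.004. Several of these values lay near the array medians of 36 and 39.

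Regulators of the hypoxia and unfolded protein responses had 6 kept genes of 9, 3 above 0 and 3 below. None was 1.5-fold apart, against 12.0% of all kept genes at least 1.5-fold higher and 10.9% lower. The median of the 6 regulators was 0.05, turning to -0.06 on the deposited scale and to -0.11 with the filter at the 75th percentile. XBP1 stood at 0.40 (614 on the miR-210 array, 502 on the ncRNA array), DDIT3 at 0.24, ATF4 at -0.22 and ATF6 at 0.21. MTTP, the partner of P4HB in microsomal triglyceride transfer protein, was not analysed here, and its cargo APOB was below the filter, with 24 on the miR-210 array and 20 on the ncRNA array.

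**Figure D5:**
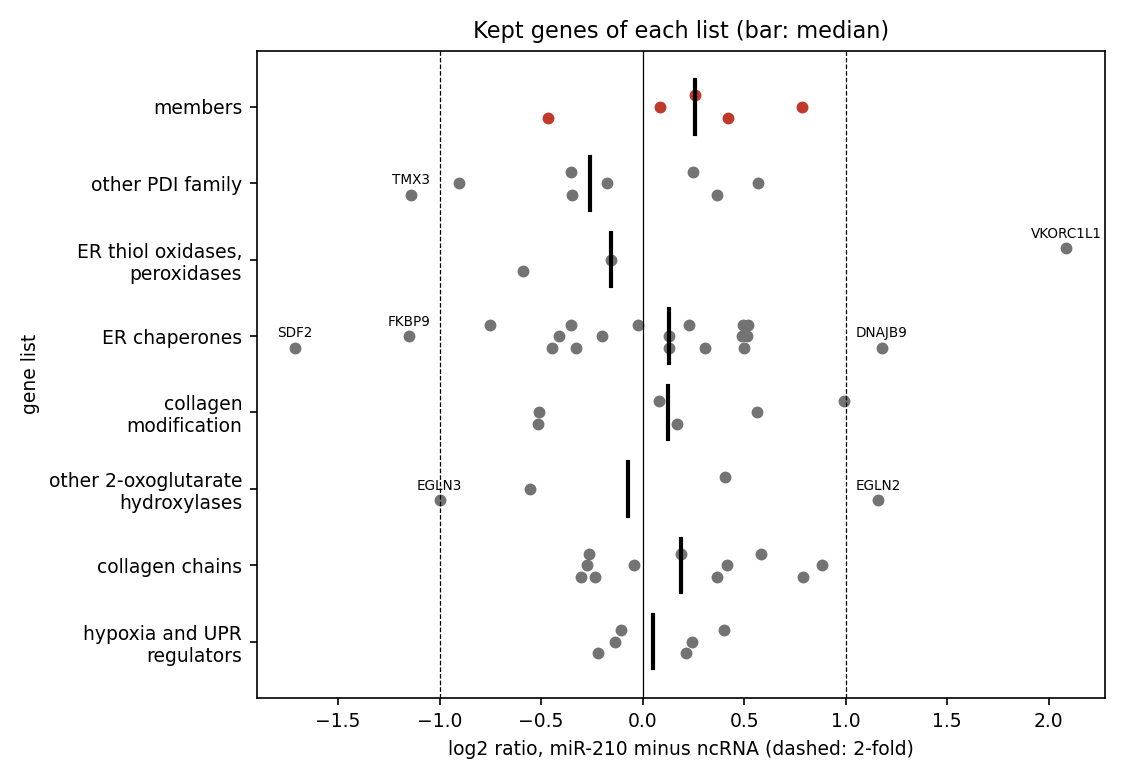
Log2 ratio of miR-210 over ncRNA (horizontal) of each kept gene in the members (red) and 7 related lists (grey), with list medians as bars, dashed lines at 2-fold and names beside genes at least 2-fold apart. The members run from -0.47 to 0.79 and stay inside the dashed lines, while genes of 4 other lists lie on or beyond them.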

How the data were processed

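Total RNA of 2 transfected KYSE-170 cultures was measured on 1 array each. Per the labels, 500 ng of RNA gave Cy5-labelled aminoallyl-cRNA for a 1-colour Toray oligonucleotide array. The deposited values are intensities on a linear scale, as read from the values. How the authors scanned, corrected and normalized them is not given in the sources used here; some values are under 0, so a background had been subtracted. Probes above 0 on both arrays (24177 of 24267) were quantile normalized and taken to log2 with numpy 2.4.6. Older symbols (2285 of 12474) were updated through unambiguous RefSeq synonyms (GRCh38.p14). A gene was kept if a probe of it reached the median of all probes in mean log2 level, a normalized intensity of 37.5, and its probe of highest mean level stood for it. No p-value can be had from single arrays, and the number of arrays limits the precision. Simulated data served only to check the code for normalization and for the spread between probes. They held a constant factor between arrays and as many raised as lowered probes. They therefore do not show how well the normalization works on these arrays. The members and lists were chosen with earlier results of these data known. Every member is named with all its probes, and of each other list up to 4 kept genes farthest from 0 and any kept gene at least 2-fold apart. The 7 alternatives were 3 other normalizations, an offset of 10, 2 other level filters and averaging of probes.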

Additional observations from a re-analysis of the deposited data

How the results depend on the processing

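No paired analysis was possible because each transfection had 1 array. Under the 7 alternatives the log2 ratio ranged from -0.62 to -0.43 for P4HB, 0.31 to 0.42 for P4HA1, 0.67 to 0.79 for P4HA2 and 0.16 to 0.26 for P4HA3, which had no value with the filter at the 75th percentile, and from -0.11 to 0.09 for ERO1A. Without normalization 1 member, P4HB, was at least 1.5-fold lower, and the chaperone median was 0.0049. Of all kept genes, 1050 were then at least 1.5-fold lower, against 730 in the main setting, a change within the limit given below. With the filter at the 75th percentile, 365 and 325 genes were at least 1.5-fold higher and lower, 95 and 98 at least 2-fold, the median of other protein disulphide isomerase family genes was 0.036 and that of collagen chains -0.14. With no filter these counts were 2177, 2004, 886 and 878, the collagen chain median was -0.042, that of thiol enzymes 0.15, and the spread between probes 0.72, as more dim probes entered. The other 130 of 145 recomputed values moved by no more than a limit set for each kind. For single members and the distance from P4HA2 to P4HB, the limit was the spread between probes. For medians it was that spread divided by the square root of the number of genes. For counts and the spread itself it was a factor of 1.5.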

Other observations

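The start regions of 8 of the 10 genes were in the RefSeq table, in 10 windows of 250 bases. The letters CCAAT and CCACG with 9 bases of any kind between them, known as the endoplasmic reticulum stress response element, were found on either strand in 1 of the windows of PDIA6, which lies before a transcript start inside the gene's outer bounds, and in that of ERO1B, against 26 of 35116 windows in all, or 0.074%. Neither gene was analysed on these arrays. The letters were not in the windows of P4HB, P4HA1 or ERO1A, which says only that they are not in these 250 bases.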
